A study of Mus musculus with 16 samples.

Results

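The genes described here are 10 genes of Toll-like receptor (TLR) recognition, taken by their symbols from the count tables of the series. They are the surface receptors Tlr1, Tlr2, Tlr4 and Tlr6, the receptor-like Cd180, the endosomal receptors Tlr3, Tlr7 and Tlr9, the chaperone Unc93b1 and the adaptor Myd88. All 10 were among the 22675 genes joined between the 2 deposited tables. All 10 also passed the filter on low counts in each of the 5 fits used below. The set leaves out other receptors of the family, which are described further on with 114 further genes of the pathway.

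TLRs are receptors of innate immunity that B cells use next to their antigen receptor. TLR2 pairs with TLR1 or TLR6 at the cell surface and senses bacterial lipopeptides, TLR4 senses lipopolysaccharide (LPS), and CD180 (RP105) is a TLR4-like surface protein that needs its partner MD-1, the product of Ly86. TLR3, TLR7 and TLR9 sense double-stranded RNA, single-stranded RNA and unmethylated CpG DNA in endosomes, where UNC93B1 escorts them from the endoplasmic reticulum. MYD88 carries the signal of the receptors named here other than TLR3, which uses TRIF, and CD180, which has no signalling TIR domain. In mouse B cells TLR7 and TLR9 support proliferation, class switching and antibody secretion, and TLR3 is best known from marginal zone cells.

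RNA was measured in memory-phenotype B cells from the spleens of C57BL/6 mice that had been given NP-OVA in alum together with LPS 7 days earlier. The cells were sorted as B220+, NIP-binding, CD38+, and negative for IgD, GL7, FAS and CD138, at about 1000 cells per Smart-seq2 library. Every group carried AID-Cre, a Cre recombinase driven by the gene for activation-induced deaminase, and B1-8hi GFP, a heavy chain knock-in that binds NP and NIP, so the groups shared the same heavy chain allele. Mice of genotype Zfp318ZSDAT/+ gave the groups HetTN (tdTomato-negative) and HetTP (tdTomato-positive), and mice of genotype Zfp318ZSDAT/ZSDAT gave KOTN and KOTP in the same way, with 4 libraries in each of the 4 groups. ZSDAT is the label's name for the allele, and KO is the label's word for the homozygous cells. Every animal had received LPS, a TLR4 ligand, and no group was left unimmunized. The labels do not say that the 4 libraries of a group came from separate mice, so a p-value here refers to the spread between libraries, which may be technical.

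The targeted gene followed the labels, with a mean Zfp318 level of 118 and 102 CPM (counts per 1000000 of the TMM-scaled library total) in HetTN and HetTP against 2.48 and 1.97 in KOTN and KOTP. RNA of Ighd, which encodes the IgD heavy chain, also differed, although all groups were sorted as IgD-negative. Its mean was 912 and 906 CPM in HetTN and HetTP against 29.2 and 23.5 in KOTN and KOTP. Total counts ranged from 8103128 to 15750240 in the heterozygous and from 7752701 to 14332493 in the homozygous libraries. Of the genes tested, 7.02% to 13.6% were without a count in a given heterozygous library, and 1.52% to 2.34% in a given homozygous library. The 2 genotypes were deposited in separate tables, and the ratio of deposited counts to the authors' mapped reads was 1.35 to 1.5 in one and 0.369 to 0.419 in the other. Genotype and table therefore cannot be told apart, and every comparison of homozygous with heterozygous cells below has this limit. Markers of the sorted cell type were present throughout: the 9 B cell genes looked at summed to 10958 to 14123 CPM in HetTN, 9743 to 12099 in HetTP, 15056 to 15744 in KOTN and 15147 to 17020 in KOTP. T cell transcripts were also found in the heterozygous libraries. The 10 T cell genes summed to 211 to 450 CPM in HetTN, 129 to 593 in HetTP and at most 1.82 in homozygous libraries. Most of that sum was Trac, with a mean of 279 of 341 CPM in HetTN and 264 of 319 in HetTP. Cd3e, Cd3d and Cd3g were uneven, without a count in HetTN replicate 3, and Cd4 and Cd28 had no count in any library. In these bulk samples, fewer cells expressing a gene and less RNA per cell cannot be told apart.

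Per kilobase of coding sequence, the chaperone gene Unc93b1 was by far the most abundant of the 10 in every group, with 448 and 507 CPM per kb in HetTN and HetTP and 884 and 828 in KOTN and KOTP. Tlr1 came next in each group, at 87.7, 60.5, 69.7 and 81.2 CPM per kb in the same order, followed by Myd88 and Cd180, and only in HetTP did its libraries overlap with those of Myd88 or Cd180. Myd88 stood at 32.9, 57.2, 54.4 and 53.8 CPM per kb, Cd180 at 37.1, 46.1, 53.5 and 51.8, and the libraries of these genes overlapped in every group. The other 6 receptors were lower. In KOTN they ran from Tlr9 (16.6 CPM per kb, 15.0 to 19.4 over the libraries) and Tlr3 (15.7, 13.95 to 16.8), which overlapped, through Tlr7 (10.2), Tlr2 (7.63) and Tlr6 (6.63) to Tlr4 (2.98). Tlr3 and Tlr7 did not overlap in KOTN, nor did Tlr6 and Tlr4, whereas Tlr7, Tlr2 and Tlr6 overlapped with their neighbours. In KOTP Tlr3 lay lower in the order of means, at 5.96 CPM per kb, after Tlr9 (11.8), Tlr7 (8.52), Tlr2 (7.66) and Tlr6 (6.33) and before Tlr4 (3.38). Its libraries there (4.25 to 7.55) overlapped with those of Tlr7, Tlr2 and Tlr6. In HetTN the order of the endosomal receptors was another one: Tlr7 led these 6 genes at 7.18 CPM per kb, and Tlr3 (0.711) and Tlr9 (0.641) were the lowest of the 10. In HetTP the 6 genes lay between 1.99 (Tlr4) and 9.24 (Tlr7) CPM per kb.

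**Figure D1:**
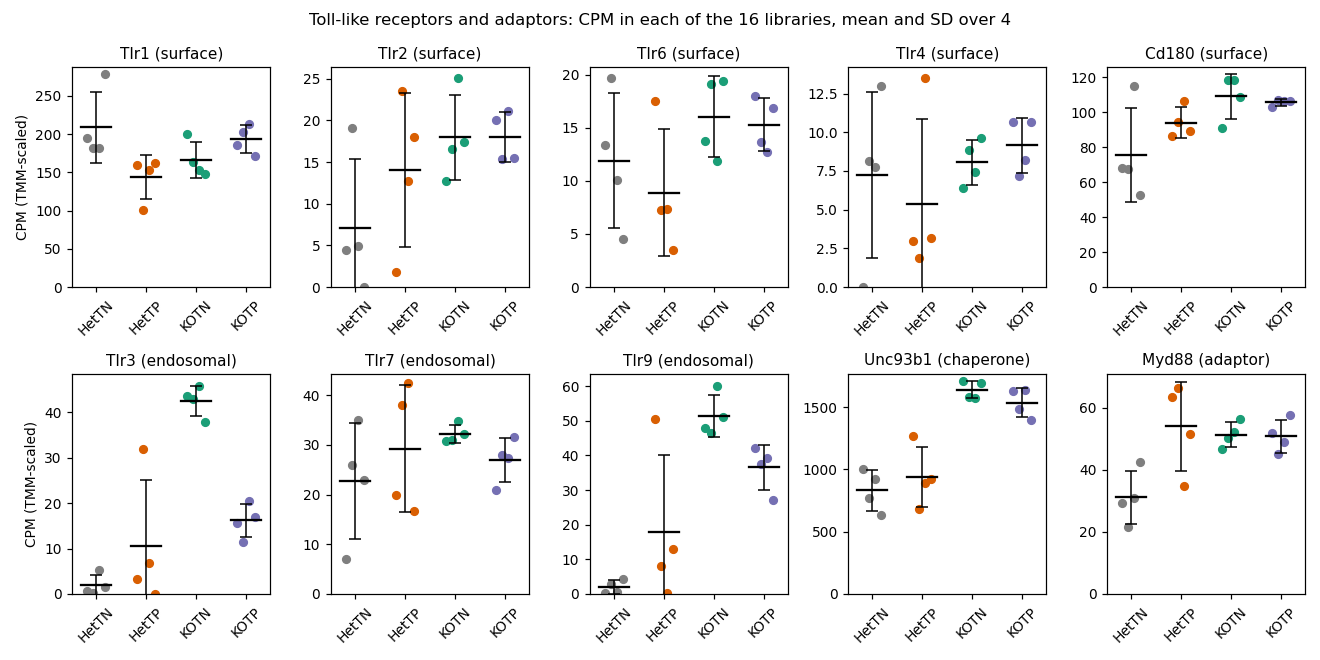
CPM (y axis, linear, scaled with TMM) of the 10 genes in each of the 16 libraries by group (x axis); points are libraries, horizontal lines the mean and vertical bars the SD over 4 libraries. Tlr3 and Tlr9 lay between 37.9 and 60.2 in KOTN and between 0.174 and 5.35 in HetTN, Unc93b1 was higher in every homozygous than in every heterozygous library, and the other genes overlapped between most groups.

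Between the genotypes, the chaperone gene Unc93b1 was higher in homozygous cells of both sorted populations, the endosomal receptor genes Tlr3 and Tlr9 were higher in tdTomato-negative cells, and none of the 5 surface genes passed the test. In tdTomato-negative cells Tlr3, Tlr9 and Unc93b1 rose (3 of 10 genes, all higher), where 10.5% of the 10687 genes tested were called and 5.61% were called higher. The median log2 fold change of the 10 genes was 0.63 and 9 of 10 were positive, against a median of 0.0046 over all genes tested. In tdTomato-positive cells only Unc93b1 rose (1 of 10), where 10.3% of all genes were called and 5.06% were called higher, and the median of the 10 was 0.52 against -0.026 over all genes. Between tdTomato-positive and tdTomato-negative cells of homozygous mice Tlr3 fell (1 of 10), where 2.37% of 9974 genes were called and 1.47% were called lower. Between the same populations of heterozygous mice none of the 10 was called, where 0% of 9703 genes were. In that last comparison edgeR gave 3 of the 10 an unadjusted p under 0.05 (Tlr1, Tlr9 and Myd88), and DESeq2, which called 38 genes, called none of the 10.

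**Figure D2:**
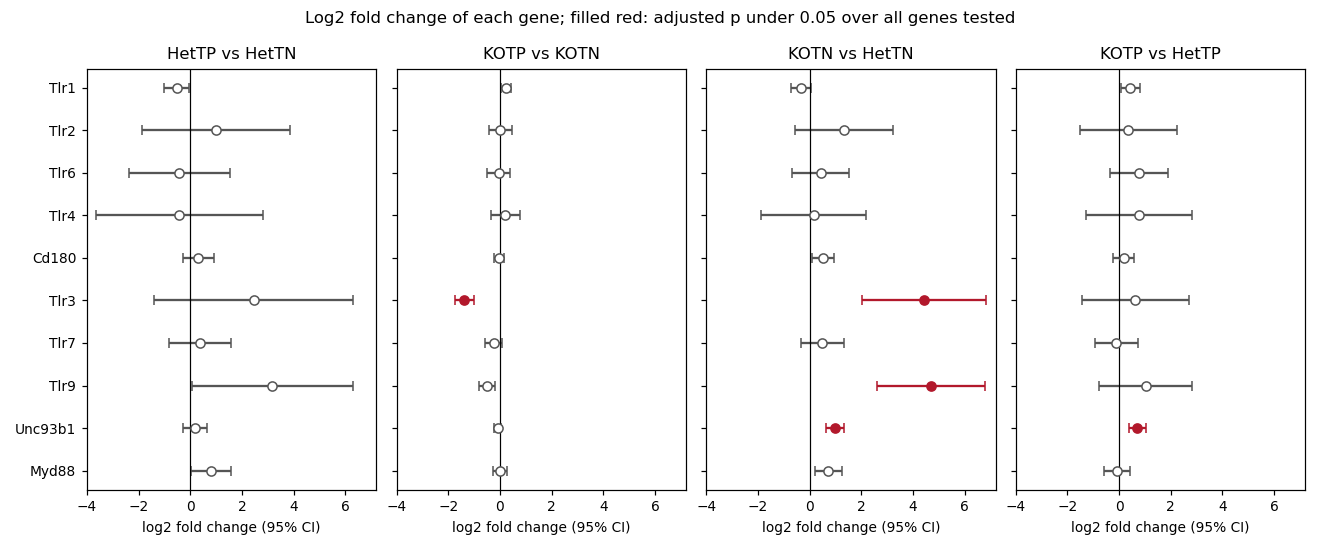
Log2 fold change (x axis) with its 95% confidence interval for the 10 genes (rows) in the 4 comparisons (panels), filled red where the adjusted p was under 0.05. The intervals of Tlr3, Tlr9 and Unc93b1 in KOTN against HetTN, of Unc93b1 in KOTP against HetTP and of Tlr3 in KOTP against KOTN are the called ones; the intervals of the low receptors are wide wherever heterozygous libraries take part.

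Tlr3, the receptor of double-stranded RNA, was the 1 gene of the 10 called between the 2 homozygous populations. Its gene lies on chromosome 8 at 45395665 to 45411080 on the minus strand (GRCm38, GENCODE M21). Its level was 43.7, 43.0, 45.7 and 37.9 CPM in the 4 KOTN libraries and 15.7, 11.5, 20.5 and 17.0 in the 4 KOTP libraries. All KOTN libraries lay above all KOTP libraries, and the spread within each group was small beside the distance. The mean was 42.6 ± 3.32 (SD, n = 4) in KOTN and 16.2 ± 3.70 in KOTP, a fall in tdTomato-positive cells of 1.38 on the log2 scale (SE 0.175, 95% interval -1.74 to -1.02, edgeR adjusted p = 2.42e-05), or 2.60-fold lower. Without each homozygous library in turn the value stayed between -1.51 and -1.25 and the call was kept. With the spread of all 16 libraries in 1 fit the difference was -1.39 and the call was lost (adjusted p = 1), and only 2 of all genes passed there.

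In heterozygous cells Tlr3 was low and uneven. It was 0.667, 0.174, 5.35 and 1.53 CPM in HetTN, from 6, 2, 82 and 17 counts, and 3.33, 32.0, 6.87 and 0 CPM in HetTP. A single HetTP library, replicate 2, held most of the group's signal, and another had no count. The mean was 1.93 ± 2.35 CPM in HetTN and 10.5 ± 14.6 in HetTP, and the log2 difference of 2.45 had an interval of -1.39 to 6.29 (adjusted p = 1.00). Without HetTP replicate 2 it was 0.81. Between KOTN and HetTN no library overlapped, and Tlr3 was higher in KOTN by 4.43 on the log2 scale (SE 1.14, interval 2.04 to 6.81, adjusted p = 0.0182). That call was kept under each of 18 alternatives, with values of 4.05 to 5.73. Between KOTP and HetTP the difference was 0.62 (interval -1.45 to 2.69, adjusted p = 0.836), so Tlr3 was not called there, with a wide interval. That value lay between 0.21 and 2.24 when a library was left out, and reached 2.87 under other settings.

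Tlr9, the receptor of unmethylated CpG DNA, was also called higher in KOTN than in HetTN, and was called in no other comparison by this test. Its gene lies on chromosome 9 at 106222598 to 106226883 on the plus strand. It was 0.222, 2.95, 0.522 and 4.24 CPM in HetTN, from 2, 34, 8 and 47 counts, and 47.9, 46.5, 60.2 and 51.0 in KOTN. The lowest KOTN library was thus far above the highest HetTN library. The log2 fold change was 4.69 (SE 0.998, interval 2.59 to 6.78, adjusted p = 0.00574). Leaving out any library kept the call (4.33 to 5.36), and limma voom with a weight per group gave 5.43 and lost it (adjusted p = 0.0551). In HetTP the 4 libraries held 50.4, 7.99, 0.237 and 13.1 CPM, from 606, 110, 4 and 192 counts. Replicate 1 of HetTP was at the level of the homozygous cells and replicate 3 was at the level of HetTN. The mean of 17.9 ± 22.3 CPM in HetTP was not called against HetTN (log2 3.17, interval 0.07 to 6.28, adjusted p = 0.989), and the difference was 1.84 without replicate 1. Nor was it called against KOTP at 36.5 ± 6.51 CPM (log2 1.03, interval -0.76 to 2.82, adjusted p = 0.590, and 0.60 to 2.37 when a library was left out). Voom called that last difference, at 2.83 (adjusted p = 0.0360).

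Among the homozygous cells Tlr9 was lower in the tdTomato-positive population by 0.49 on the log2 scale without passing the test (SE 0.149, adjusted p = 0.0913). The KOTP libraries held 42.1, 37.5, 39.3 and 27.2 CPM, each below the lowest KOTN library. Tlr3 and Tlr9 were the 2 of 10 genes without overlap between KOTN and KOTP, where 7.45% of all genes tested had none. The 2 HetTP libraries with the most Tlr3 and the most Tlr9 were not the same: replicate 2 held 32.0 CPM of Tlr3 and 7.99 of Tlr9, and replicate 1 held 3.33 and 50.4.

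The 250 bases before the RefSeq transcription start of Tlr3 and of Tlr9 (GRCm38.p6) are shown because these 2 genes moved together between HetTN and KOTN. They are printed 5′ to 3′ along the gene, with matches to the motifs searched in capitals.
Tlr3, chr8:45410381-45410630, minus strand: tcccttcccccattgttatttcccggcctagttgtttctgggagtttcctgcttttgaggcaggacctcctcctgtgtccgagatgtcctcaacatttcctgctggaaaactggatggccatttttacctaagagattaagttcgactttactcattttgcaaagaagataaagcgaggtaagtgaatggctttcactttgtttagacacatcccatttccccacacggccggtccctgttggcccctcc
Tlr9, chr9:106222348-106222597, plus strand: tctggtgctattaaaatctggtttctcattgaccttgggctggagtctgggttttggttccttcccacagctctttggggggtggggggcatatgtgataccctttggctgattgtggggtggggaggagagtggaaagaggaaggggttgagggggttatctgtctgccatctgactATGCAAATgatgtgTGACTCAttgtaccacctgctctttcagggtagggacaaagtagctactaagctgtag
The Tlr3 window had 6 CpG and 48.0% G and C, and the Tlr9 window had 0 CpG and 50.4%, against medians of 6 and 52.4% over 32851 mouse promoter windows. The letters searched on both strands were GGTGTGA (T-box half-site), GAGGAAGT and CCGGAAGT (ETS sites), ATGCAAAT (octamer) and TGANTCA (AP-1), which do not overlap in these windows. The last 2 were added to the search after the Tlr9 sequence had been read. The Tlr9 window held an octamer, at 72 to 65 bases before the start, and an AP-1 match at 58 to 52 bases before it, and none of these letters was found in the Tlr3 window. An octamer was present in 1.60% of all windows and an AP-1 match in 6.75%. These are letter matches, and no binding was measured here.

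Tlr7, the receptor of single-stranded RNA, did not pass the test in any comparison. Its gene lies on chromosome X at 167304929 to 167330558 on the minus strand. It was 7.01, 26.0, 35.0 and 22.9 CPM in HetTN, 19.8, 38.0, 42.4 and 16.8 in HetTP, 30.8, 30.9, 34.8 and 32.1 in KOTN and 20.9, 28.0, 27.4 and 31.6 in KOTP. All 4 groups overlapped. The log2 difference was 0.50 between KOTN and HetTN (interval -0.34 to 1.34) and -0.24 between KOTP and KOTN (interval -0.57 to 0.10). The first of these intervals lies wholly below the 4.69 of Tlr9 in the same comparison.

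Unc93b1, which escorts these endosomal receptors, was higher in homozygous cells of both sorted populations. It lies on chromosome 19 at 3935186 to 3949340 on the plus strand. Its level was 1004, 771, 922 and 633 CPM in HetTN, 1267, 683, 894 and 926 in HetTP, 1709, 1585, 1577 and 1692 in KOTN and 1628, 1488, 1637 and 1397 in KOTP. Every homozygous library was above every heterozygous one. Unc93b1 was 1.97-fold higher in KOTN than in HetTN (log2 0.98, SE 0.163, adjusted p = 0.00078) and 1.63-fold higher in KOTP than in HetTP (log2 0.71, SE 0.162, adjusted p = 0.00746). The first call was kept under all 18 alternatives. The second was lost when libraries were scaled to their totals alone, at 0.48 (adjusted p = 0.0902), a scaling that moved the median of all genes to -0.25. Within a genotype the difference of Unc93b1 between the sorted populations did not pass the test (log2 0.18, interval -0.29 to 0.64, in heterozygous and -0.08, interval -0.22 to 0.06, in homozygous cells).

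Tlr1, which pairs with TLR2, was the most abundant receptor gene. It was 194, 182, 182 and 278 CPM in HetTN, 160, 101, 153 and 163 in HetTP, 200, 164, 153 and 148 in KOTN and 186, 203, 214 and 171 in KOTP. In heterozygous cells every HetTP library was below every HetTN library (log2 -0.54, SE 0.229), and in homozygous cells the KOTP libraries were higher on average, with overlap (log2 0.23, SE 0.0964). Neither difference passed the test (adjusted p = 0.964 and 0.286). Tlr1 was the 1 gene of 10 without overlap in the heterozygous comparison, where 4.85% of all genes had none. Without KOTN replicate 1 the homozygous difference was 0.33 and passed (adjusted p = 0.0320). Every KOTP library was also above every HetTP library, by 0.42 on the log2 scale, without passing the test (adjusted p = 0.154).

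The other lipopeptide receptors were low, and none passed the test in any comparison. Tlr2, the shared partner (chromosome 3, 83836272 to 83841767, minus strand), was 4.45, 19.1, 4.96 and 0 CPM in HetTN, 1.83, 23.5, 12.7 and 18.01 in HetTP, 12.7, 16.6, 25.0 and 17.4 in KOTN and 20.0, 15.4, 21.2 and 15.5 in KOTP. The homozygous groups nearly coincided, at 17.95 ± 5.15 and 18.03 ± 3.01 CPM, with an interval of the log2 difference of -0.43 to 0.48. Tlr6 ranged from 4.51 to 19.7 CPM in HetTN, 3.48 to 17.5 in HetTP, 11.9 to 19.4 in KOTN and 12.8 to 17.98 in KOTP. The groups overlapped for both genes.

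Tlr1 and Tlr6 are neighbours on the minus strand of chromosome 5, at 64924679 to 64933563 and 64952031 to 64960097, and their coding sequences are near copies over part of their length. Aligned over 2339 bases they were 77.0% identical. The longest run without a difference was 229 bases, at chr5:64925537-64925765 in Tlr1 and chr5:64953828-64954056 in Tlr6, and it is shown because a read from it cannot be given to 1 gene.
Tlr1 and Tlr6, shared run, GRCm38, minus strand: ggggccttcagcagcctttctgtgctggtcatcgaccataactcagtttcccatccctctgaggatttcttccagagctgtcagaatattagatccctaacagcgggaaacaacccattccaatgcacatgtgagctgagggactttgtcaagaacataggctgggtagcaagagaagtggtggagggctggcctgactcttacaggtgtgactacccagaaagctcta
Of all stretches of 50 bases in the coding sequence, 19.4% of those in Tlr1 were also present in Tlr6. How reads with several mapping places were treated is not given in the sources used here, so the low Tlr6 level in particular is uncertain. The summed counts of both genes were called in no comparison.

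Tlr4 and Cd180 bear on LPS, which was part of the immunization. Tlr4 (chromosome 4, 66827584 to 66930284, plus strand) was low throughout, with 0, 8.16, 7.76 and 12.998 CPM in HetTN, 3.00, 1.89, 13.5 and 3.14 in HetTP, 6.37, 8.87, 7.41 and 9.62 in KOTN and 10.7, 7.16, 8.20 and 10.7 in KOTP. Its groups overlapped in every comparison, and with heterozygous libraries the interval of the log2 difference spanned -1.88 to 2.19 (KOTN against HetTN), too wide to compare levels. Cd180 (chromosome 13, 102693558 to 102739629, plus strand) was 68.0, 67.6, 115 and 52.6 CPM in HetTN, 86.2, 94.6, 106 and 89.2 in HetTP, 91.3, 119, 119 and 109 in KOTN and 103, 107, 107 and 107 in KOTP. Cd180 was highest in HetTN replicate 3 of its group, and apart from that library HetTN lay below KOTN. The difference of 0.53 between KOTN and HetTN missed the threshold (SE 0.199, adjusted p = 0.103), and it passed without HetTN replicate 3 (0.80, adjusted p = 0.00497) and with upper quartile scaling (0.61, adjusted p = 0.0478). The homozygous populations differed by -0.03 (interval -0.24 to 0.17).

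Myd88, the adaptor, had its lowest mean in HetTN. Its gene lies on chromosome 9 at 119335934 to 119341411 on the minus strand. It was 29.4, 21.6, 31.0 and 42.5 CPM there, 63.5, 66.4, 34.7 and 51.5 in HetTP, 46.6, 50.2, 52.3 and 56.4 in KOTN and 51.9, 44.96, 49.0 and 57.7 in KOTP. Every KOTN library was above every HetTN library, by 0.72 on the log2 scale (SE 0.247), which missed the threshold (adjusted p = 0.0693). It passed with upper quartile scaling (0.80, adjusted p = 0.0442) and without HetTN replicate 4 (0.91, adjusted p = 0.0253). In KOTN against HetTN, Myd88, Tlr3, Tlr9 and Unc93b1 were the 4 of 10 genes without overlap, where 19.7% of all genes tested had none. In KOTP against HetTP there were 2 of 10, Tlr1 and Unc93b1, where 20.1% had none. HetTP was above HetTN by 0.80 with an interval of 0.01 to 1.59 (adjusted p = 0.989). KOTP and KOTN differed by 0.00051 (interval -0.26 to 0.26). Of the coding bases of Myd88, 25.2% lie in exons of Acaa1a on the other strand, and the strand setting of the counting is not given in the sources used here, so reads of the pair cannot be told apart there.

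Whether the tdTomato effect differed between homozygous and heterozygous cells was tested as a difference of differences, homozygous minus heterozygous, and it was called for none of the 10 genes, where 0.122% of 10687 genes were called. In edgeR 4 of the 10 had an unadjusted p under 0.05. These were Tlr9 (-3.66 on the log2 scale, SE 1.25, adjusted p = 0.293), Tlr3 (-3.81, SE 1.45, adjusted p = 0.354), Tlr1 (0.76, SE 0.249, adjusted p = 0.281) and Myd88 (-0.81, SE 0.347, adjusted p = 0.450). DESeq2 called none of the 10 either. So the fall of Tlr3 in homozygous tdTomato-positive cells was not shown to differ from its value in heterozygous cells.

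The spread between libraries of a group set how much could be seen. The SD of the 10 genes had a median of 52.3% of the mean in HetTN and 55.0% in HetTP, but 11.9% in KOTN and 16.4% in KOTP. Over all tested genes of at least 10 CPM the medians were 38.7%, 34.3%, 12.7% and 12.7%. That minimum was not applied to the 10 genes, so the medians are not directly comparable. Tlr4 lay below it in every group, as did Tlr2, Tlr3 and Tlr9 in HetTN and Tlr6 in HetTP. Tlr3 and Tlr9 had the widest relative spread in HetTP, at 138% and 124%, against 7.81% and 12.0% in KOTN. Cd180 had the narrowest in 2 groups, 9.40% in HetTP and 1.93% in KOTP.

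**Figure D3:**
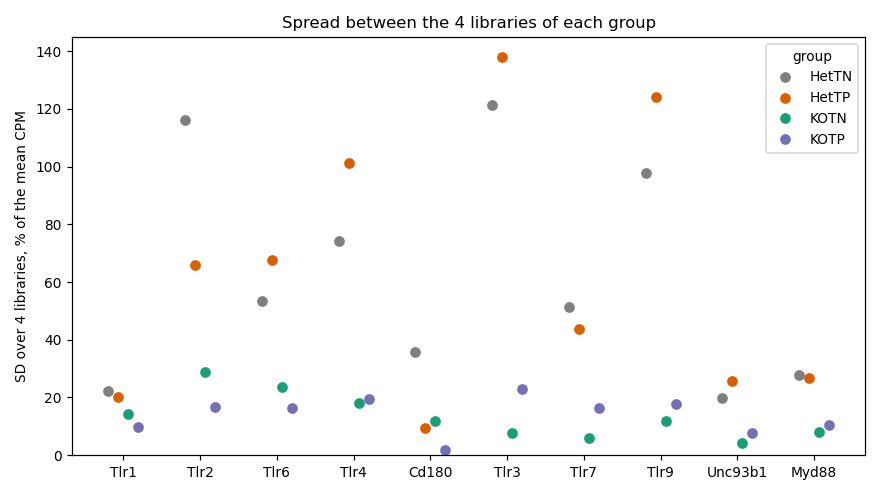
SD over 4 libraries as a percentage of the mean CPM (y axis) for the 10 genes (x axis) in the 4 groups (colours). The median over the genes was 52.3% in HetTN and 55.0% in HetTP and 11.9% in KOTN and 16.4% in KOTP, and Tlr3 in HetTP was the highest at 138%.

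A further 114 genes of TLR biology in 9 lists were looked at in the same fits. In KOTP against KOTN, 2 of 98 tested genes passed and both fell, where 2.37% of all genes were called. Cd36, a scavenger receptor that presents lipids to TLR2 with TLR6, was 182 ± 21.1 CPM in KOTN and 101 ± 9.60 in KOTP (log2 -0.83, SE 0.0986, adjusted p = 8.18e-06). Ctsb, the endosomal protease cathepsin B, was lower by a log2 value of -0.32 (SE 0.0845, adjusted p = 0.0405), a call that was lost under 8 of 18 alternatives. The call of Cd36 was lost only in the fit of all 16 libraries. The median of the 98 genes was -9.9e-05, against 0.0060 over all genes tested. None of 94 tested genes passed in HetTP against HetTN, and none of 101 passed in the difference of the tdTomato effects. At an unadjusted p under 0.05 edgeR had 3 and 2 genes there, respectively.

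In KOTN against HetTN 14 of 101 pathway genes passed, 9 higher and 5 lower, where 10.5% of all genes tested were called. Tab3, described below, is among the 9 and was tested only through the homozygous libraries, so its direction is not a result. The median was 0.14, against 0.0046 over all genes tested. In KOTP against HetTP 10 of 101 passed, 6 higher and 4 lower, where 10.3% of all genes were called (median 0.012, against -0.026). Among co-receptors and chaperones 1 of 8 passed in each, and it was Ly86, which encodes the CD180 partner MD-1. Ly86 was 280, 302, 484 and 395 CPM in HetTN, 255, 361, 255 and 313 in HetTP, 693, 717, 731 and 673 in KOTN and 573, 633, 628 and 615 in KOTP. Every homozygous library was above every heterozygous one. The log2 fold change was 0.95 (SE 0.157, adjusted p = 0.00076) in tdTomato-negative and 1.05 (SE 0.157, adjusted p = 0.00023) in tdTomato-positive cells, and both calls were kept under all 18 alternatives.

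Among genes of endosomal trafficking and receptor processing, 4 of 17 passed in tdTomato-negative cells, 2 higher and 2 lower, where 10.5% of all genes were called. In tdTomato-positive cells 3 of 17 passed, all higher, where 10.3% of all genes were called. Ctss and Ctsh, which encode endosomal cathepsins S and H, rose in both, Ctss by 0.57 (adjusted p = 0.00061) and 0.77 (adjusted p = 2.9e-05) and Ctsh by 0.56 and 0.63 on the log2 scale. Ctss was 1004 ± 42.4, 870 ± 53.2, 1495 ± 85.2 and 1483 ± 56.0 CPM in HetTN, HetTP, KOTN and KOTP. Atp6v0d1, a subunit of the endosomal proton pump, fell by 0.73 in tdTomato-negative cells (adjusted p = 0.0108). Slc15a3, an endolysosomal peptide transporter, fell by 1.05 there (adjusted p = 0.0355). Bloc1s1, a subunit of a lysosome-related trafficking complex, rose by 0.88 in tdTomato-positive cells (adjusted p = 0.0149).

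Signalling genes went both ways, where 10.5% of all genes were called in tdTomato-negative and 10.3% in tdTomato-positive cells. Of 6 interferon regulatory factors, Irf8 rose (0.58) and Irf7 fell (-1.35) in tdTomato-negative cells, and Irf7 (-1.56) and Irf4 (-1.67) fell in tdTomato-positive cells. Of 14 inhibitors, Irak3, which blocks the IRAK complex, rose by 2.95 in tdTomato-negative cells, from 5.35 ± 5.88 CPM in HetTN to 41.9 ± 5.42 in KOTN (adjusted p = 0.00884). The ubiquitin ligase gene Rnf216 (1.30) and the kinase gene Lyn (0.76) rose there too, and Tnip1, whose product restrains NF-kB with A20, fell in both comparisons (-1.05 and -1.30). Of 19 tested kinases and ubiquitin ligases 1 passed, in tdTomato-negative cells: Tab3, a TAK1 partner, had no count in HetTN and 38 counts over the 4 KOTN libraries, at least 18.01-fold higher against a floor of 3 counts over the group. Tab3 did not pass the filter on low counts among the heterozygous libraries alone, so it was tested only through the homozygous ones. That favours a positive value, so its direction is not a result. The call of Tab3 was lost under 8 of 16 alternatives. None of 4 tested adaptors and none of 10 cytosolic sensors passed in either comparison, where edgeR had 0 and 3 genes at an unadjusted p under 0.05 in tdTomato-negative cells and 0 and 1 in tdTomato-positive cells.

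Of 22 tested genes that TLR signals induce, 2 passed in tdTomato-negative and 3 in tdTomato-positive cells. These counts lie near the 10.5% and 10.3% of all genes called in the same comparisons. Cd83, an activation marker of B cells, was 85.4 ± 7.54, 159 ± 65.1, 243 ± 31.1 and 296 ± 28.9 CPM in HetTN, HetTP, KOTN and KOTP, and rose by 1.51 (adjusted p = 0.00027) and 0.90 (adjusted p = 0.0112). Bcl3, an atypical NF-kB inhibitor family member, fell by 1.45 (adjusted p = 0.00158) and 1.03 (adjusted p = 0.0135). Batf, a transcription factor of class switching, rose by 1.31 in tdTomato-positive cells (adjusted p = 0.00974). Under the 18 alternatives 5 of the 14 calls in tdTomato-negative cells were kept throughout (Ly86, Ctss, Atp6v0d1, Cd83 and Bcl3) and 4 of the 10 in tdTomato-positive cells (Ly86, Ctss, Bloc1s1 and Batf). Each of the others was lost under at least 1, most often those of Tnip1 and Rnf216 in tdTomato-negative cells, lost under 12 and 11.

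**Figure D4:**
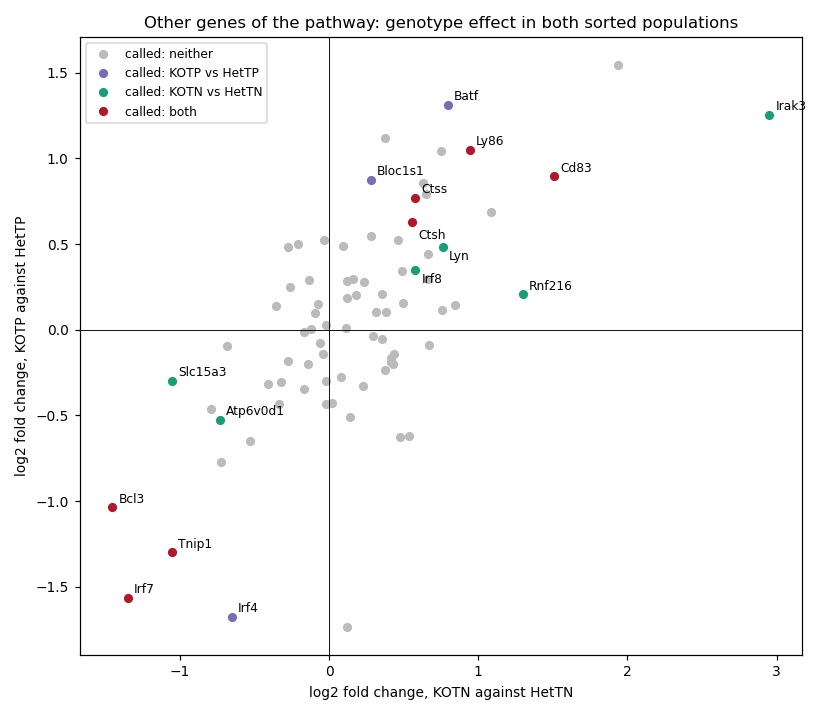
Log2 fold change in KOTN against HetTN (x axis) and in KOTP against HetTP (y axis) for the 80 other pathway genes with a mean of at least 10 CPM, coloured by the comparison in which they were called. Ly86, Ctss, Ctsh and Cd83 were called higher in both and Irf7, Tnip1 and Bcl3 lower in both; Tab3 is below the minimum and is not drawn.

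The remaining receptors of the family were nearly silent, apart from Tlr12 in homozygous cells and Tlr8 in HetTN replicate 2 (6.60 CPM). Tlr5 and Tlr11 had no count in any library. Tlr12 was the 1 of these 5 receptors that passed the filter, and it did so through the homozygous libraries. Tlr12 was at most 3.07 CPM in HetTN, was found in 1 of 4 HetTP libraries, at 8.67 CPM, and ranged from 10.0 to 24.7 in KOTN and 9.52 to 11.8 in KOTP. No comparison of it was called. EdgeR gave it an unadjusted p under 0.05 in KOTN against HetTN (log2 4.18) and in KOTP against KOTN (log2 -0.69).

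Markers of other cells moved with the genotype. In KOTN against HetTN, 8 of 14 tested macrophage and monocyte genes, 2 of 4 T cell genes, 3 of 6 germinal center genes and 2 of 6 plasma cell genes were called lower. Of all 10687 genes tested, 521 were called lower there. In KOTP against HetTP these counts were 7 of 14, 2 of 4, 4 of 6 and 2 of 6, and 558 of all 10687 genes were called lower. No T cell gene passed the filter on low counts among the homozygous libraries alone. The 4 tested ones entered through the heterozygous libraries, so their direction is not a result. Bcl6, the germinal center transcription factor, fell by 1.91 and 1.77 on the log2 scale, and Jchain, the joining chain of secreted antibody, fell by 2.78 and 4.44. The germinal center list summed to 545 to 1034 CPM in HetTN, 462 to 814 in HetTP, 327 to 440 in KOTN and 209 to 273 in KOTP. The macrophage list summed to 551 to 1467 CPM in HetTN, 149 to 849 in HetTP, 116 to 170 in KOTN and 85.7 to 114 in KOTP. Not all of this list fell. Adgre1 had means of 12.0 and 9.84 CPM in HetTN and HetTP against 42.4 and 39.5 in KOTN and KOTP. Cd68 had means of 49.9 and 27.4 CPM against 47.6 and 23.6 in the same order. Of 9 B cell genes 5 were called higher and 1, Pax5, was called lower in each genotype comparison. In tdTomato-negative cells 6 of 9 were positive (median 0.41), where 5.61% of all genes were called higher. In tdTomato-positive cells 7 of 9 were positive (median 0.56), where 5.06% of all genes were called higher. The 6 markers of T-bet-expressing, CD11c-bearing B cells summed to 100 to 177 CPM in HetTN, 140 to 220 in HetTP, 1083 to 1201 in KOTN and 823 to 883 in KOTP. All 5 tested members were called higher in KOTN than in HetTN (median 3.84), where 5.61% of all genes were. In KOTP against HetTP all 5 were positive (median 0.98) and 2 of 5 were called higher, where 5.06% of all genes were. None of the 5 had a positive log2 fold change in KOTP against KOTN, and 4 of 5 were called lower there. In KOTP against KOTN 3 of 6 germinal center genes, 2 of 9 marginal zone and B1 genes and 2 of 14 macrophage genes were called lower as well, beside the fall of Tlr3. Of all genes tested, 1.47% were called lower there. None of the 6 germinal center genes and none of the 9 marginal zone and B1 genes had a positive log2 fold change there, and 6 and 7 of them had an unadjusted p under 0.05 in edgeR. The marginal zone and B1 list summed to 1683 to 1815 CPM in KOTN and 1435 to 1612 in KOTP. The 8 conventional dendritic cell genes summed to 24.9 to 50.0 CPM in HetTN, 18.4 to 42.1 in HetTP, 64.3 to 74.7 in KOTN and 54.8 to 71.1 in KOTP. Of these, 4 were tested between the genotypes, and all 4 were positive in KOTN against HetTN (median 3.52), with Sirpa called (5.79, adjusted p = 0.0163). Among the heterozygous libraries alone only Flt3 of this list passed the filter on low counts. The others, Sirpa included, were tested only through the homozygous libraries, which favours positive values, so their direction is not a result. In KOTP against HetTP 3 of 4 were positive (median 2.15), with Flt3 called (1.11, adjusted p = 0.0333). Xcr1 of this list had no count in any library. The part of these lists in the differences of Tlr3, Tlr9 and Unc93b1 was not tested.

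The genes most like the 3 called members across the 16 libraries, by Pearson's r of log2 CPM among 6999 genes, are given as a description, since libraries of a genotype share their table and depth of detection. They were Tmem168 (r = 0.933), Ube2f (0.901) and Ms4a1 (0.901) for Tlr3, Cox15 (0.961), Cep63 (0.929) and Twf2 (0.925) for Tlr9, and Cd38 (0.946), Epb41l2 (0.930) and Ighg2b (0.928) for Unc93b1. Ms4a1 encodes the B cell antigen CD20, and it rose by 0.98 in KOTN against HetTN and 0.56 in KOTP against HetTP. Cd38, by which the cells were sorted, rose by 1.81 and 1.62. Twf2, an actin-binding protein gene, ends 7208 bases before Tlr9 on the same strand of chromosome 9. It rose by 0.96 in KOTN against HetTN (adjusted p = 0.00988), against 4.69 for Tlr9, and neither gene was called in KOTP against HetTP.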

How the data were processed

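RNA of 16 libraries was sequenced with Smart-seq2. Per the submitters' processing notes, reads were processed with Trim Galore, STAR 2.2.0 and featureCounts on mm10. The authors deposited 1 table of raw counts over coding sequence per genotype, per the file headers. Strand setting, read pairing and multiple mapping are not given in the sources used here; among genes with 1 to 40 counts, 56.9% to 84.2% of heterozygous and 77.0% to 80.4% of homozygous counts were even. The authors' columns scaled to mapped reads served only to find their divisor.

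The tables (22680 entries each) were joined by symbol, leaving out duplicated names, and 88.8% of symbols matched GENCODE M21. Genes were filtered with filterByExpr, scaled with TMM and tested with the robust quasi-likelihood test of edgeR 4.0.16 (R 4.3.3, limma 3.58.1), with Benjamini-Hochberg adjustment over all genes tested and calls under 0.05. Comparisons within a genotype used its 8 libraries, and the others used all 16. The scripts were tested on simulated counts. CPM is the count per 1000000 of the TMM-scaled library total, and spreads are SD over 4 libraries. Intervals and floors cover counting error or the spread between libraries only, since reads carried no molecular identifiers. No 2 libraries of a group were identical (24 pairs compared).

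The alternatives were RLE, upper quartile and library-total scaling, tests without a filter or with at least 5 CPM in 4 libraries, DESeq2 1.42.0, limma voom with group weights, a replicate block, another set of libraries in the fit, summed Tlr1 and Tlr6, and each library left out. The genes, lists and tests were chosen with earlier results of these data known. Named were the 10 genes, up to 4 called genes per list and comparison by smallest p, and the 3 genes most like each called member. Promoter windows from RefSeq matched 7 of the 10 genes.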

Additional observations from a re-analysis of the deposited data

Results flagged for a closer look

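In 4 of 40 groups of libraries (10 genes in 4 groups), the highest or lowest library stood apart from the others by Dixon's test at the 95% level, which chance does in about 1 of 20 groups. Tlr1 was 278 CPM in HetTN replicate 4, where the other 3 libraries lay between 182 and 194. Tlr1 was 101 CPM in HetTP replicate 2, where the others lay between 153 and 163. Tlr4 was 13.5 CPM in HetTP replicate 3, where the others lay between 1.89 and 3.14. Cd180 was 103 CPM in KOTP replicate 1, where the other 3 libraries were all at 107, so that this library stands apart only because the group is narrow. None of these 3 genes was called by edgeR with TMM scaling and all libraries, and Cd180 passed in KOTN against HetTN with upper quartile scaling (0.61, adjusted p = 0.0478).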

How the results depend on the processing

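Of the 5 calls among the 10 genes, those of Tlr3 and Unc93b1 in KOTN against HetTN were kept under all 18 alternatives. The number of the 10 genes called moved as follows. In KOTP against KOTN it was 0 in the fit of all 16 libraries and 1 to 2 when a replicate was left out. In KOTN against HetTN it was 5 with upper quartile scaling, 2 with voom and 3 to 4 without a replicate. In KOTP against HetTP it was 0 with library totals and 2 with voom. The cause was not tested. The replicate block gave 0, 1, 3, 1 and 0 called genes in the 5 comparisons (in the order HetTP against HetTN, KOTP against KOTN, KOTN against HetTN, KOTP against HetTP and the difference) and changed none of these calls. Replicate numbers did not pair the libraries. Deviations of log2 CPM from the group mean correlated at -0.029 to 0.087 between same-numbered libraries of 2 groups. In 5 of 16 such pairs the own number gave the highest correlation. Pairs of groups were taken within and between genotypes. Over the whole table, the number of genes called lay between 0 and 114 in HetTP against HetTN, 2 and 396 in KOTP against KOTN (236 in the main analysis), 608 and 1580 in KOTN against HetTN (1121), 722 and 1476 in KOTP against HetTP (1099), and 1 and 194 in the difference (13). Calls of pathway genes lay between 0 and 5 in KOTP against KOTN and 6 and 17 in KOTN against HetTN. Library totals shifted the median of all genes to -0.25 in KOTP against HetTP, 0.14 in HetTP against HetTN and -0.18 in the difference. The split of higher and lower calls was 600 and 521 in KOTN against HetTN, 745 and 429 with upper quartile scaling, 487 and 634 with library totals and 357 and 474 with voom. In KOTP against HetTP it was 541 and 558, and 693 and 469, 351 and 911, and 501 and 723 under the same settings.

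The direction turned only for values that were not called. Tlr4 in HetTP against HetTN was 0.46 with voom, 0.0055 with the replicate block and -1.42 to 0.025 without a replicate. Myd88 in KOTP against KOTN was -0.0017 with RLE, -0.0018 with upper quartile scaling, -0.035 with library totals, -0.0031 with the filter at 5 CPM, -0.0011 with DESeq2, -0.0038 with the replicate block, -0.014 in the fit of all 16 libraries, -0.0017 with Tlr1 and Tlr6 summed and -0.066 to 0.051 without a replicate. In the same comparison Tlr2 was -0.018 with library totals and -0.12 to 0.22 without a replicate, Tlr6 was 0.21 when summed with Tlr1 and -0.17 to 0.052 without a replicate, and Cd180 was -0.11 to 0.0091 without a replicate. In KOTN against HetTN Tlr6 was -0.28 when summed with Tlr1, and Tlr4 was -0.25 to 0.60 without a replicate. The values for the sum are those of Tlr1 and Tlr6 counted together, and Tlr1 held most of the counts. They are therefore not a turn of Tlr6 itself. In KOTP against HetTP Myd88 was 0.012 with upper quartile scaling, 0.0046 with voom and -0.25 to 0.022 without a replicate, Cd180 was -0.054 with library totals, and Tlr7 was -0.31 to 0.12 without a replicate. In the difference Tlr4 was -0.24 with voom and Tlr6 was -0.0018 to 0.92 without a replicate.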
